A study of Mus musculus with 19 samples.

Results

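The 9 founder (F0) embryos of the PWK × B6 cross were examined for how the reads of each embryo divide among its transgene barcodes. They are 9 of the 19 samples of the series and were taken by their labels, as all the samples of this cross in the series, which the labels number #1 to #9. Each embryo came from a C57BL/6J (B6) oocyte fertilized with sperm of PWK/Phj (PWK), a wild-derived strain, so that the parental chromosomes differ in sequence. The fertilized eggs were electroporated with mRNA of mPBase, a codon-optimized piggyBac transposase, and then injected in the pronucleus with a donor plasmid that carries GFP under the broadly active CAG promoter together with a DNA barcode (BC). Embryos were collected at E11.5 and taken as transgenic by fluorescence and genomic PCR, and the BC region was amplified from the genomic DNA of each, giving 1 sequenced library per embryo. The other groups used below are 3 F1 embryos at E11.5, which inherit the same kind of transgene through the germline, 2 B6J F0 embryos at E11.5 made like the PWK × B6 embryos but without PWK, and the mESC lines #6–10 and #13–25, each grown from a picked colony of Tg blastocyst cells. All of these samples carry the BC-linked GFP transgene, and none is a control without it.

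The piggyBac transposase cuts the transposon out of the plasmid at its terminal repeats and pastes it into genomic sites with the sequence TTAA. A copy that enters the genome of the 1-cell embryo before DNA replication passes to every cell, whereas a copy that enters later reaches only some of the cells, which makes the founder a mosaic. With equal contribution of all cells, integration before DNA replication in 1 cell at the 2-, 4- or 8-cell stage marks 50%, 25% or 12.5% of cells. Integration after replication places the copy on 1 sister chromatid and so in 1 of the 2 daughter cells, which gives the fraction of the next stage. Each donor molecule brings a random BC of nominally 20 nt. The donor was a pool of plasmids from many bacterial colonies, so a BC marks a plasmid clone and not a single molecule. Copies with the same BC are counted as 1 BC, whose reads can then come from more than 1 integration. Reads alone do not show that a BC is integrated in the genome, and this was not tested for any BC here. Reads give the amounts of an embryo's BCs relative to each other. They do not give the fraction of cells with a BC, and an embryo with a single BC has nearly all its reads on it whatever that fraction is.

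For each embryo, BC sequences were ordered by reads and kept down to the rank after which the quotient of reads, rank over next rank, was highest. This kept 22 BCs in the 9 embryos. Embryos #3, #8 and #9 had 1 BC each, embryos #5 and #7 had 2, embryos #1 and #6 had 3, embryo #4 had 4 and embryo #2 had 5. BCs are numbered by rank within their embryo. The sequences of the 6 embryos with several BCs are shown, because the comparisons below are between them, with that of embryo #8, because its length is not 20 nt. All are written 5′ to 3′, and capitals mark the bases other than G and T.
Embryo #1, BC1: tgggtgtttAgggtgtttAt
Embryo #1, BC2: ttttgggAtttgtttgtggt
Embryo #1, BC3: ttttAggtggtCggttttgt
Embryo #2, BC1: gtggtttgAttgtAtttttC
Embryo #2, BC2: ttAtttggCttttgttgttt
Embryo #2, BC3: gttgCttggttggttCgtgt
Embryo #2, BC4: AtttttgtgCtgtttgttgg
Embryo #2, BC5: gttgggggCgtCttgggttt
Embryo #4, BC1: gtttgggtggAtttCCtggt
Embryo #4, BC2: gtggCttAttttAttttgtg
Embryo #4, BC3: tCgtgtttCgtgttttgttC
Embryo #4, BC4: tgtgtttCtgttAggAtttC
Embryo #5, BC1: ttgttCttCtCgggttAgtt
Embryo #5, BC2: ttgCtggttttCttCttttg
Embryo #6, BC1: tgtgtCttgCtgtgttgtgA
Embryo #6, BC2: gtggCttAttttAttttgtg
Embryo #6, BC3: tttttgCtCCtgttAgggtt
Embryo #7, BC1: tgtgCCtgttgtttACtCtt
Embryo #7, BC2: gtttCgtgttAttCgtgtCt
Embryo #8, BC1: tttttttttggtgtCtgttgCtgtg

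These BCs were made mostly of G and T, which formed 75% to 95% of the bases of the 22 BCs (median 85%). Their composition was not compared here with that of the donor pool or of BCs in the other samples. No BC had more than 2 A or more than 4 C. A was absent from 6 BCs and C from 3. The BC of embryo #8 was 25 nt long and began with 9 T, and the other 21 were 20 nt. BCs of the same embryo differed by at least 6 edits, counting substitutions, insertions and deletions, and different BCs of different embryos by at least 5. One sequence was kept in a pair of embryos, as BC2 of embryo #4 and BC2 of embryo #6, so that the 22 BCs were 21 distinct sequences.

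Read totals of the 9 libraries ran from 109552 to 275456 (median 201203). Intervals given below are 95% Wilson intervals. They cover counting error only, since reads without molecular identifiers are not independent molecules, and with 1 library per embryo the error of repeating the PCR is not known. Shares here are of the reads on the kept BCs of an embryo. In embryo #1, BC1 had 93640 reads, BC2 had 55129 and BC3 had 50726, which were 46.9% (interval 46.7% to 47.2%), 27.6% (27.4% to 27.8%) and 25.4% (25.2% to 25.6%). BC1 thus stood apart and the other two were near each other. In embryo #2, BC1 had 80788 reads and BC2 had 72231, or 41.5% (41.3% to 41.7%) and 37.1% (36.9% to 37.3%). Its BC3, BC4 and BC5 had 14782, 13846 and 12944 reads, or 7.60%, 7.12% and 6.65%. The reads of embryo #2 therefore fell in a high and a low class with no BC between them.

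In embryo #4, BC1 had 160513 reads, 83.2% (83.0% to 83.3%), while BC2, BC3 and BC4 had 10919, 10780 and 10774 reads, or 5.66%, 5.59% and 5.58%. The last 3 had overlapping intervals, from 5.48% to 5.76% in all. In embryo #5, BC1 had 168882 reads and BC2 had 35133, or 82.8% and 17.2% (17.1% to 17.4%). In embryo #7, BC1 had 221257 reads and BC2 had 52734, or 80.8% and 19.2% (19.1% to 19.4%). In these 3 embryos a single BC thus had at least 80.8% of the kept reads. In embryo #6, BC1, BC2 and BC3 had 64196, 60837 and 57087 reads, or 35.2%, 33.4% and 31.3%, which was the most even division of the 6 embryos. The single BCs of embryos #3, #8 and #9 had 205071, 108086 and 247543 reads.

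**Figure D1:**
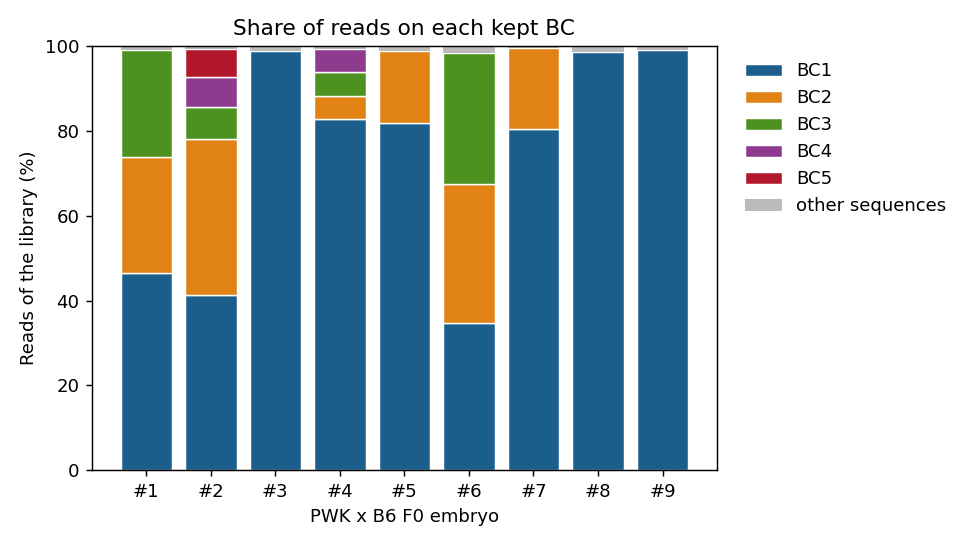
Share of the reads of each library on each kept BC, for the 9 PWK × B6 F0 embryos. The vertical axis is the percent of all reads of the library and starts at 0, each coloured segment is 1 BC by rank, and grey is all other sequences. A single BC fills embryos #3, #8 and #9, 1 BC has at least 80.3% of the reads in embryos #4, #5 and #7, and embryo #6 is divided nearly evenly.

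Shares were first set against equal division, which would be met if every BC of an embryo were carried by the same number of cells and amplified alike. Of the 19 BCs in the 6 embryos with several, 1 had an interval that held the equal share, BC2 of embryo #6, with 33.4% (33.2% to 33.6%) against 33.3%. The other two BCs of embryo #6 were 0.08 log2 units above and 0.09 below the equal share. In embryo #1, the BCs were 0.49 above and 0.27 and 0.39 below it on the log2 scale. BC1 of embryo #4 was 1.73 log2 units above its equal share of 25%, the highest of the 19, and the 3 others of this embryo were at -2.14 to -2.16. Counting error was much smaller than these deviations, but amplification can also make the reads of equally frequent BCs unequal. The spread of reads among BCs of 1 library was therefore taken from F1 embryos and mESC lines, whose BCs should each be in every cell if the inheritance and the colony picking hold.

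Reads were next expressed relative to the first BC of the library, where 0, -1, -2 and -3 on the log2 scale are the values for a BC in as many cells as the first and for 1, 2 and 3 halvings. In embryo #1, BC2 was at -0.76 and BC3 at -0.88, next to the first halving. In embryo #6, BC2 at -0.08 and BC3 at -0.17 were next to 0, as was BC2 of embryo #2 at -0.16. BC2 of embryo #7 was at -2.07, a ratio of 0.238 (0.236 to 0.241) to BC1, and BC2 of embryo #5 was at -2.27, a ratio of 0.208 (0.206 to 0.210). The 3 low BCs of embryo #2 were at -2.45, -2.54 and -2.64, between 2 and 3 halvings. Those of embryo #4 were at -3.88, -3.90 and -3.90, which is beyond 3 halvings and 0.10 to 0.12 log2 units from a 4th. In all, 6 of the 13 BCs after the first, or 46.2%, lay within 0.25 log2 units of 0 or of 1 to 3 halvings, and with a 4th halving, added after seeing the data, 9 did, or 69.2%. Such windows cover 50% of the scale between neighbouring steps.

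The same scale was applied to the F1 embryos and mESC lines. There, 31 of the 44 BCs after the first, 70.5%, were within 0.25 log2 units of a step, with or without the 4th halving. In F1 #1, 8 of its 9 BCs after the first lay between -0.88 and -1.07, and the last lay at -2.17. A position within 0.25 log2 units of the first halving, as in embryo #1, was thus also found among inherited BCs. The lowest BC was at -0.35 in F1 #2 and at -1.01 in F1 #3. The lowest was at -1.92 in mESC line #6–10 and at -2.65, a ratio of 0.159, in line #13–25. The 3 low BCs of embryo #4, at ratios of 0.0671 to 0.0680, were below every BC of these 5 libraries, and no other BC of the 9 embryos was. This comparison rested on 1 library, since without mESC line #13–25 the count was 7, namely the low BCs of embryos #2 and #4 and BC2 of embryo #5, and the same 7 lay below the lowest BC of the F1 embryos, at a ratio of 0.222.

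**Figure D2:**
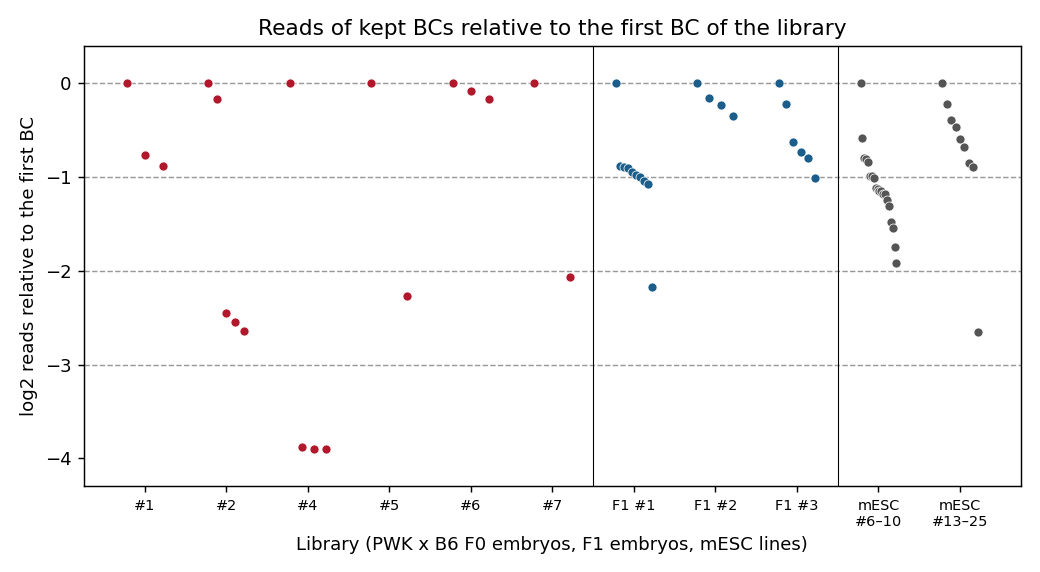
Reads of each kept BC relative to the first BC of its library on a log2 scale, for the 6 PWK × B6 F0 embryos with several BCs (red), the F1 embryos (blue) and the mESC lines (grey). Each point is 1 BC, points are spread sideways by rank, and dashed lines mark 0 and 1, 2 and 3 halvings. The low BCs of embryo #4 lie near -3.9, below every point of the F1 embryos and mESC lines. BC3 of embryo #1 lies at the level of most BCs of F1 #1 and BC2 lies above them.

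Pairs of BCs of the same embryo showed the same division. Of the 24 pairs in the PWK × B6 embryos, 13 differed by less than 1 log2 unit and 11 by more than 2, with none between. In the F1 embryos, 12 of 66 pairs (18.2%) differed by at least 1 log2 unit and 1 (1.52%) by at least 2. In the mESC lines, these were 26 and 5 (2.21%) of 226 pairs. Pairs of an embryo share BCs and are not independent, so these counts are a description. Of the 66 F1 pairs, 1 differed by as much as BC1 and BC2 of embryo #7 and none by as much as BC1 and BC2 of embryo #5, and of the 226 pairs in the mESC lines, 4 and 2 did.

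Unevenness was compared over embryos by the mean absolute log2 ratio over all pairs of kept BCs of a library, which does not grow with the number of BCs. It was 0.59 in embryo #1, 1.53 in #2, 1.95 in #4, 2.27 in #5, 0.11 in #6 and 2.07 in #7. Embryos #2, #4, #5 and #7 were above, and embryo #6 below, every other library in this comparison. In F1 #1, #2 and #3 it was 0.49, 0.19 and 0.46, and in the mESC lines #6–10 and #13–25 it was 0.45 and 0.76. The mean was 1.42 ± 0.88 in the PWK × B6 embryos (SD, n = 6) and 0.38 ± 0.16 in the F1 embryos (SD, n = 3), a difference of 1.04 that did not pass the threshold of 0.05 (two-sided exact permutation test over 84 splits, p = 0.107; adjusted by Benjamini-Hochberg over the 2 comparisons, p = 0.107). Against the F1 embryos and mESC lines together, with 0.47 ± 0.20 (SD, n = 5), the difference was 0.95 (two-sided exact permutation test over 462 splits, p = 0.0498; adjusted p = 0.0996). When single libraries were left out in turn, both differences passed the threshold only without embryo #6, the most even of the 6 (adjusted exact permutation p = 0.0357 and 0.0317). With BCs kept only down to the largest drop in read number, which leaves BC1 and BC2 of embryo #2 and only BC1 of embryos #4, #5 and #7, they turned to -0.04 and -0.05. Down to the second-highest quotient they were 0.58 and 0.30 (adjusted exact permutation p = 0.786 for both), but for another set of embryos. That rule also leaves only BC1 of embryos #4, #5 and #7, which drop out. Embryos #3, #8 and #9 enter instead, through sequences below the main cutoff. The B6J F0 embryos had 0.63 and 0.71, with 15 and 9 kept BCs, and were not tested against the PWK × B6 embryos. The F1 libraries were deeper, with 467646 to 665455 reads. With all libraries thinned to the smallest total, the differences from the F1 embryos and from the F1 embryos and mESC lines were 1.04 and 0.95. Other differences between the groups of libraries cannot be told apart from founder or inherited origin.

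The low BCs of embryos #2 and #4 were alike in that the 3 of each embryo lay close together. In embryo #4, the highest of the 3 had 1.01 times the reads of the lowest, and in embryo #2 it had 1.14 times. For comparison, among 39 sets of 3 BCs with neighbouring ranks in the F1 embryos and mESC lines, this ratio ranged from 1.01 to 3.49 with a median of 1.15. None of the 39 sets was closer than that of embryo #4, and 19 were at least as close as that of embryo #2. Such sets overlap and were not used for a test. Between the embryos the low BCs differed in level, with 0.160 to 0.183 of the reads of BC1 in embryo #2.

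The sequence shared by embryos #4 and #6 had 60837 reads in embryo #6, 32.8% of all reads of that library, and 10919 in embryo #4, 5.62%. Embryo #6 thus had 5.57 times as many. The other two BCs of embryo #6 were also read in the library of embryo #4, with 81 reads of BC1 and 79 of BC3. As a percent of their reads in embryo #6, the library of embryo #4 had 0.126% for BC1, 17.9% for BC2 and 0.138% for BC3. The shared BC was therefore much more frequent in embryo #4 than its companions from embryo #6. Whether it stands for integration of the same donor BC in both embryos or for DNA of one embryo in the other was not tested.

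Because BCs of one embryo also appeared in libraries of the others, the level of such reads was measured. Of the 20 BCs kept in a single embryo, all 20 were read in the library of at least 1 other PWK × B6 embryo, each in 4 to 8 of the 8 others. Reads were present in 125 of the 160 combinations of BC and library, with a median of 0.0201% of the reads of that library where present. The highest was 0.737%, for 1366 reads of BC1 of embryo #5 in the library of embryo #6. This range leaves out a sequence that passed the cutoff in another library, as the shared BC did with 5.62% in embryo #4, so it lies below the kept BCs by construction and sets no upper limit for such reads. In the 10 libraries of other samples, which include the mixtures of mESC lines, 3 of 200 combinations had reads.

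The proportions of an embryo's BCs could be read again among these reads, in the 21 cases in which the first BC of an embryo with several BCs had at least 100 reads in another library of the cross. This gave 36 ratios for 11 BCs, and 22 of them had a 95% exact interval that held the ratio in the embryo's own library. In the library of embryo #3, the BCs of embryo #2 had 366, 314, 78, 60 and 52 reads, so that BC3, BC4 and BC5 were at 0.213, 0.164 and 0.142 of BC1, close to 0.183, 0.171 and 0.160 in embryo #2. In the library of embryo #5, BC1, BC3 and BC4 of embryo #4 had 748, 54 and 60 reads, or 0.0722 and 0.0802 of BC1, against 0.0672 and 0.0671 in embryo #4. In the library of embryo #6, BC2 of embryo #5 was at 0.213 of BC1, against 0.208. Other libraries departed from the own ratio, and 14 of the 36 intervals did not hold it. In the library of embryo #6, BC2 to BC5 of embryo #2 were at 0.540, 0.421, 0.0635 and 0.0635 of BC1, and none of these 4 intervals held the own ratio. BC2 of embryo #5 was at 0.105 of BC1 in the library of embryo #7 and at 0.0423 in that of embryo #9. In the library of embryo #8, BC1 of embryo #4 had 227 reads while BC3 had 6 and BC4 had 2. In that of embryo #9, where BC1 of embryo #4 had only 30 reads, BC3 had 100. These reads are not replicates of the embryos, and how they reached the other libraries was not tested.

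**Figure D3:**
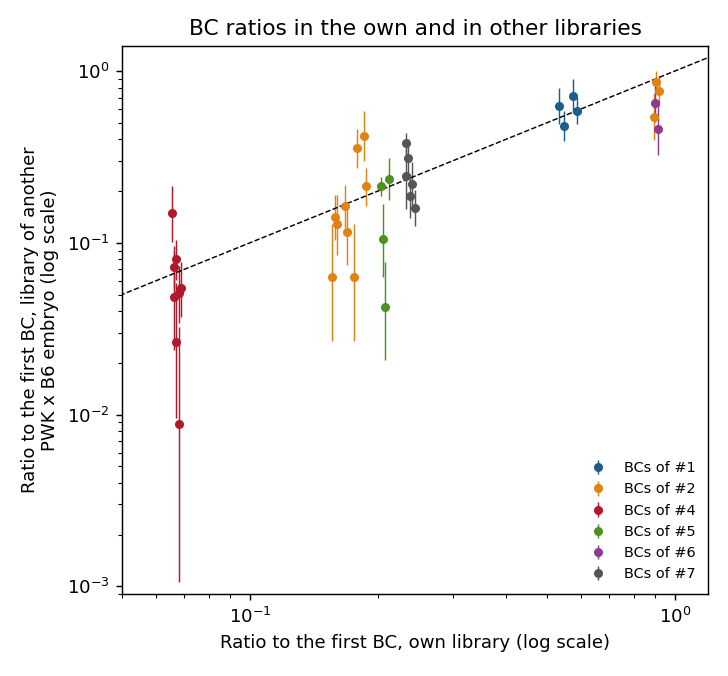
Ratio of reads to the first BC of the same embryo, in the embryo's own library (horizontal axis) and in libraries of other PWK × B6 embryos (vertical axis), both on log scales. Each point is 1 BC in 1 other library, bars are 95% exact intervals for counting error, points are shifted slightly sideways, and the dashed line marks equal ratios. Intervals of 22 of the 36 points hold the own ratio, and the points farthest below the line are BCs of embryos #4 and #5.

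Base composition did not order the BCs of the embryos in one way. In embryo #2, the high BCs had 30% and 25% G and C, and the low ones had 50%, 35% and 60%. In embryo #4, BC1 had 50% and the low BCs 30%, 40% and 35%. The pair in embryo #7 had 40% each with a ratio of 0.238 between them. In embryo #1, BC1 and BC3 had 40% each and BC2 had 35%.

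The study mapped integrations by inverse PCR with primers for single BCs and assigned them to the paternal or maternal allele. The sites and alleles are not tied to single BCs in the text used here, so a BC's share cannot be set beside its site or allele. The names of the primers carry an embryo and a BC number, and each of the 16 inverse PCR primers was closest in sequence to the kept BC of its own number. Of these primers, 6 matched it without a difference and 10 with 1 to 3 edits, in letters that were read from page images. Inverse PCR primers are named for every kept BC except the low ones, namely BC3, BC4 and BC5 of embryo #2 and BC2, BC3 and BC4 of embryo #4, although the sequence of BC2 of embryo #4 is that of BC2 of embryo #6, for which one is named. Primers for a mapped locus, tied here to a BC by their name alone, are named for the first BC of each of the 9 embryos, for BC2 and BC3 of embryo #1, for BC2 of embryo #5 and for BC3 of embryo #6. No such primer is named for BC2 of embryos #2, #6 and #7, among them the sequence shared with embryo #4. By these names, the BCs with a locus primer had 41.2% of the reads in embryo #2, 82.7% in embryo #4, 65.4% in embryo #6 and 80.3% in embryo #7. Total copy numbers by ddPCR and Southern blots were not analysed here.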

How the data were processed

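BC amplicon-seq counts were analysed for 9 PWK × B6 F0 embryos, with F1 and B6J F0 embryos and mESC lines for comparison, 1 library per sample. The authors took each BC from the reads by its flanking bases, grouped similar sequences with starcode and deposited read counts per BC sequence, without normalization. The grouping distance is not given in the sources used here, and errors merged by it cannot be seen. Libraries of the compared samples held 109552 to 665455 reads. BCs were kept by the highest quotient of successive reads. Wilson intervals (exact ones for reads in other libraries) and exact permutation tests of differences in means were computed with SciPy 1.17.1 and NumPy 2.4.6 under Python 3.11.15, and edits between BCs with edlib 1.3.9.post1. Figures were drawn with Matplotlib 3.10.9. The steps were tested on simulated data. Alternatives were 7 other ways of keeping BCs, other measures of unevenness and leaving out single libraries. All kept BCs are given, and sequences are printed for embryos with several BCs and for a BC of another length. The embryos, comparisons and rules were chosen with earlier results of these data known. Expression data were not analysed here.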

Additional observations from a re-analysis of the deposited data

Results flagged for a closer look

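The second-highest quotient of embryo #4, the 14.7-fold step from BC1 to its 3 low BCs, stood apart from those of the other 8 PWK × B6 embryos, which ranged from 2 to 4.89. Its gap to the nearest was 0.773 of the whole range, above the 95% critical value of 0.493 for 9 samples. These quotients also enter the rule that keeps BCs, and they are not of one kind. In embryos #1, #3, #6, #8 and #9 the second-highest quotient lay below the kept BCs, and embryos #3, #8 and #9, with 1 BC each, have no step between kept BCs. The value is given as a description. Of 11 measures per embryo checked in this way, it was the only one that stood out. Chance marks about 1 group in 20 for each measure, so 1 mark among 11 measures would not be unusual.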

How the results depend on the processing

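The number of kept BCs, 22, was the same with a cutoff at 1% of the reads, after merging within 2 edits and after thinning to the smallest total. It was 24 with only 20 nt sequences, a rule that removes the 25 nt BC of embryo #8. In its place, BCs of embryos #4, #7 and #9 are kept in that library. It was 14 at the largest drop in read number, 43 at 0.1% of the reads and 154 at the second-highest quotient. The 3 BCs below every BC of the F1 embryos and mESC lines became 0 at the largest drop, 19 at 0.1%, 17 at the second-highest quotient and 7 with the F1 embryos alone, and ranged from 3 to 7 when single libraries were left out. Of the 6 BCs within 0.25 log2 units of a step, 2 were within 0.1, and with a 4th halving, chosen after seeing the data, 9 were within 0.25. The 1 interval with the equal share became 0 at 0.1%, at the second-highest quotient and with shares of all reads. Unevenness turned to -0.0357 against F1 embryos and -0.0514 against F1 embryos and mESC lines at the largest drop (exact permutation, adjusted p = 0.80 for both), with 3 PWK × B6 embryos against 2 F1 embryos or 3 libraries left, where the smallest p possible is 0.10, and rose to 2.75 (adjusted p = 0.00909) and 3.08 (adjusted p = 0.0020) at 0.1%, where sequences of other embryos are kept. The differences were 0.58 and 0.30 at the second-highest quotient (exact permutation, adjusted p = 0.786 for both), and measured as log2 of the first over the last BC, a range that can grow with the number of BCs, they were 0.81 and 0.37 (exact permutation, adjusted p = 0.604 for both). When single libraries were left out, the differences ranged from 0.87 to 1.30 and from 0.78 to 1.21, and only leaving out embryo #6 moved them past the threshold. Without the 3 low BCs of embryos #2 and #4, an alternative chosen after seeing the data, they were 0.66 and 0.57 (exact permutation, adjusted p = 0.365 for both). No paired analysis was possible because replicate numbers of embryos in different groups name unrelated animals. With 6 embryos against 3 or 5 libraries, only large differences in unevenness can be shown.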

Other observations

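BC2 of embryo #1 was the only kept BC of the 9 embryos with reads outside the libraries of the cross. It had 124 reads in F1 #1, 96 in F1 #2 and 221 in B6J F0 #9, which was 0.0186%, 0.0199% and 0.0453% of their reads. BC1 and BC3 of embryo #1 had 0 reads in these libraries, which allows shares of up to 0.000451%, 0.000623% and 0.000614% (3 reads of the total). The sequence was at least 10 edits from every BC kept in these 3 libraries. The other way round, no BC of the F1 or B6J F0 embryos was among the reads below the cutoff in the PWK × B6 libraries, whereas BCs of the mESC lines had 69 to 339 reads there in each of the 9 libraries.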
